A study of Mus musculus with 8 samples.

Results

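MHC class I and class II presentation was followed through 40 genes of alveolar macrophages of the mouse, which live on the air side of the lung. The genes were taken by exact symbol from a count table of 48709 genes. Of the 40 genes, 17 belong to the class II arm, from the chain gene H2-Aa to the promoter-binding subunit Rfxap, and 23 to the class I arm, from the chain gene H2-K1 to the chaperone Calr. All 40 were found, and 39 passed the expression filter. The exception was H2-Eb2, with 0 counts in each WT library and 2, 1, 1 and 1 counts in the Batf2-/- libraries.

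Cells of 4 WT (C57BL/6J) and 4 Batf2-/- pools were compared. The question was what BATF2, which pairs with JUN proteins at AP-1 sites, contributes to an M1-like state. The WT and the Batf2-/- cells alike were first given 10 ng/mL interferon gamma for 4 h ex vivo, then 20% culture supernatant of Klebsiella pneumoniae for 6 h, and each library came from the pooled cells of 4 mice. The sources used here do not give the background strain of the Batf2-/- mice, the age of the mice or the extent of the deletion. Every library therefore carries the interferon stimulus, and unstimulated cells were not analysed here.

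Class II molecules present peptides from endosomes to CD4 T cells, and class I molecules present peptides cut in the cytosol to CD8 T cells. Interferon gamma induces both routes in macrophages, the first through the coactivator CIITA and the second through its relative NLRC5. CIITA and NLRC5 do not bind DNA directly: they are held on a promoter module of X and Y boxes by the RFX subunits, NF-Y and CREB family factors.

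That module could be read in the promoters of some class II genes. The RefSeq promoter table (GRCm38.p6) held 32 of the 40 genes. Among the class II genes it lacked were H2-Ab1, Cd74 and Ciita. The stretches shown run from 140 to 41 bases before the start site, 5′ to 3′ on the gene's strand, and overlap no annotated exon. H2-Aa lies on the minus strand at chr17:34287864-34287963, H2-Eb1 on the plus strand at chr17:34305727-34305826, H2-DMb2 on the plus strand at chr17:34145109-34145208, and B2m, the class I light chain gene shown for contrast, on the plus strand at chr2:122147547-122147646. In the first 3, capitals mark TNNNAAC, an X box core, and ATTGG, the Y box; the capitals after the X core of H2-Aa mark a CRE (TGACG read on both strands). In B2m, capitals mark an interferon response element (GAAA, any 2 bases, GAAA), a CRE core (TGACG) and ATTGG.
H2-Aa: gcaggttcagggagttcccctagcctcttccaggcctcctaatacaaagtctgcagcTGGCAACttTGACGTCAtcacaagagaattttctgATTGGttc
H2-Eb1: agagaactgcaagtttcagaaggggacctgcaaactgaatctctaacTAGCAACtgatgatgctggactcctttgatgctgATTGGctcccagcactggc
H2-DMb2: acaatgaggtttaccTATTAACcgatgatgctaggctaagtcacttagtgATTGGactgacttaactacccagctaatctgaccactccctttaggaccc
B2m: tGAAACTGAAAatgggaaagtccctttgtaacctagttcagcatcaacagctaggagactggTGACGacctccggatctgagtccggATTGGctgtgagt

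TNNNAAC and ATTGG lay 28 bases apart in H2-Aa, H2-DMb1 and H2-DMb2, 27 in H2-Eb1 and 25 in H2-Ob. The pair, on the gene's strand with 15 to 30 bases between its parts, stood in the 250 bases before the start of 5 of 13 class II genes, in 1 of 19 class I genes (Tapbp) and in 1.01% of 32851 promoters. The pair was not found in H2-DMa. Its letters were chosen after these promoters were read, so the share is a description. Other letters for parts of the module were found more widely in the class I arm, on either strand. A looser X box core (CC, any 2 bases, G, any 2 bases, AC, any base, G) was in 4 of 13 class II and 9 of 19 class I genes, against 14.2% of all promoters. TGACG was in 2 of 13 and 11 of 19, against 17.8%. The AP-1 site TGANTCA, the kind of site that BATF family dimers bind, was found on either strand in H2-DMa, H2-DMb1 and Rfx5, that is in 3 of 13 class II genes, 0 of 19 class I genes and 6.75% of all promoters. The interferon response element was found in Ctss, H2-T22, H2-T23 and B2m, against 2.98% of all promoters. A CCAAT box in either orientation, of which ATTGG is the reverse, was in 11 of 13 class II and 14 of 19 class I genes, against 33.8% of all promoters.

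Batf2 counts were 0 in each Batf2-/- library and 168 ± 21.9 CPM in WT (SD, n = 4), where CPM is the count per 1000000 of the scaled library size. Total counts ranged from 31730041 to 39888022 per library. Numbers 1 to 4 name the WT libraries and 5 to 8 the Batf2-/- libraries, in the order of the table. The first principal component held 42.5% of the variance, and its scores rose within each genotype in the order of the table. WT scores were -16.7, -7.73, 4.72 and 43.9, and Batf2-/- scores were -34.95, -16.2, -1.85 and 28.9. Libraries 4 and 8 thus scored highest of their genotypes, and library 5 scored lowest of all. The second component, with 24.2% of the variance, separated the genotypes. Its scores ran from 10.7 to 24.25 for WT and from -27.5 to -10.7 for Batf2-/-. The 13 alveolar macrophage markers were all expressed, and their summed level was 7558 to 9425 CPM in WT and 9455 to 13930 CPM in Batf2-/-. These sums do not overlap, but Chil3, a secreted chitinase-like protein, carries the gap at 3316 ± 613 and 6291 ± 2055 CPM. Without it the other 12 summed to 5070 to 5873 CPM in WT and 4814 to 5224 CPM in Batf2-/-, with overlap. Lpl, lipoprotein lipase, was lower with no overlap at 2237 ± 148.5 and 1695 ± 132 CPM (adjusted p = 0.189), as was Pparg at 10.1 ± 0.536 and 8.11 ± 0.925 CPM (0.409). These were the 2 of 13 markers that were lower with no overlap, against 3.29% of all genes. Another 3 of 13 were higher with no overlap, against 3.03%: Chil3, Car4 and Krt79. Krt79 stood at 0.436 ± 0.0577 and 0.6235 ± 0.1225 CPM (edgeR adjusted p = 0.602). The part of these markers in the values of the members was not tested. Of the 13 markers 1 rose by edgeR, against 0.55% of all genes called higher, and 12 did not pass. Car4, a membrane carbonic anhydrase, stood at 40.6, 47.3, 49.7 and 50.7 CPM in WT and at 100.1, 84.7, 103 and 85.6 CPM in Batf2-/- (1.98-fold higher with no overlap, edgeR adjusted p = 0.00501). With the block for column position described below, edgeR called 3 of 13 lower, against 5.58% of all genes. These were Lpl (adjusted p = 1.75e-04), Siglecf (0.0169) and Pparg (0.0255). Another 3 were called higher, against 6.97% of all genes: Car4 (3.03e-04), Adgre1 (0.00272) and Ear2 (0.0209).

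The genes spanned a wide range of levels. Per kilobase of exon, the highest WT levels in the class I arm were those of B2m, at 4307 CPM per kb, H2-D1, a classical heavy chain, at 1994, and Calr, a chaperone that holds new heavy chains, at 944.5. In the class II arm they were Ctss, the protease cathepsin S that trims the invariant chain, at 2039, Cd74, the invariant chain itself, at 1273, and Ifi30, a thiol reductase of endosomes, at 632. The class II chain genes H2-Ab1, H2-Aa and H2-Eb1 stood at 292, 237 and 208 CPM per kb in WT. The ranges of these 3 neighbours overlapped between libraries. Within each library, however, H2-Aa stood below H2-Ab1 per length, at ratios from 0.604 to 0.9925. The regulators were low, with Nlrc5 at 10.6, Ciita at 7.21, Rfxap at 3.90, Rfxank at 2.21 and Rfx5 at 1.79 CPM per kb. H2-Oa and H2-Ob, whose products restrain peptide exchange in B cells and some dendritic cells, were lowest of the tested genes at 0.795 and 0.108 CPM per kb.

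**Figure D1:**
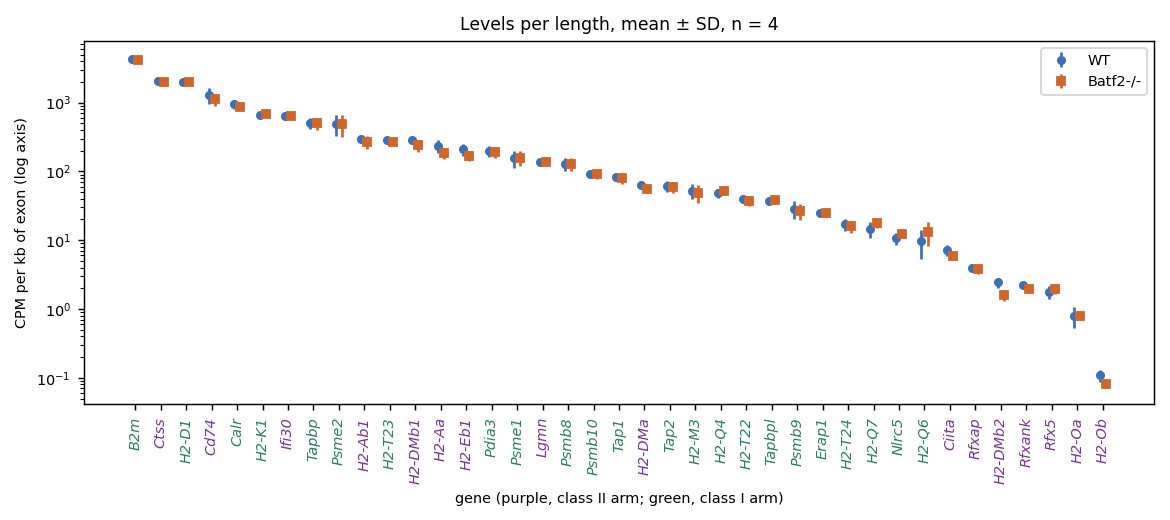
Level per length of the 39 tested genes in WT (circles) and Batf2-/- (squares), as CPM per kb of exon on a log axis, mean ± SD, n = 4. The order runs from B2m to H2-Ob, and the genotypes lie close together next to the range between genes.

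Whether genes of either arm passed the test depended on a block for column position. Without it none passed. At an adjusted p under 0.05 in edgeR's quasi-likelihood test, 0 of 16 tested class II genes and 0 of 23 class I genes were called, against 1.11% of all 11083 genes tested (0.559% lower and 0.55% higher in Batf2-/-). DESeq2 and limma-voom also called none of the 39. At an unadjusted p under 0.05 the same test held 1 class II gene, H2-DMb2, and no class I gene, against 8.5% of all genes (3.04% lower and 5.46% higher). H2-DMb2 was lower. Groups did not overlap for 1 of the 39 genes, again H2-DMb2, against 6.33% of all genes (3.29% lower and 3.03% higher).

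Columns at the same place under each genotype heading deviated together, with correlations across genes of 0.27 to 0.76 for deviations from the genotype means, and each library was most like its counterpart. The labels do not give this pairing. With column position as a block, edgeR called 12.5% of all genes and 7 of the 39. In the class II arm 5 of 16 fell, against 5.58% of all genes called lower: H2-Aa, H2-Eb1, H2-DMa, H2-DMb1 and H2-DMb2. Their log2 fold changes were -0.35, -0.31, -0.20, -0.23 and -0.63, nearly those without the block. Cd74 and Ciita lay just over the threshold (0.0524 and 0.0558). In the class I arm 2 of 23 rose, against 6.97% of all genes called higher, and these were H2-Q6 and H2-Q7. Without libraries 4 and 8, 0 of the 39 passed by edgeR, against 1.85% of all genes (0.655% lower and 1.19% higher), and the arm medians were -0.22 and 0.01.

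The arms differed in where their fold changes lay. Of the class II genes 14 of 16 had a log2 fold change below 0, and of the class I genes 13 of 23, against 54.0% of all genes. The median log2 fold change was -0.19 in the class II arm, -0.004 in the class I arm and -0.015 over all genes tested. No p is given for these medians, since genes of an arm share their libraries. The difference of the medians was -0.18, and it lay between -0.22 and -0.12 when each library was left out in turn. The smallest difference was that without WT library 1, the library with the most class II RNA.

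Intervals show which changes stay possible. For 18 of 23 class I genes and 9 of 16 class II genes the 95% interval lay within a 1.5-fold change in either direction, as for 59.6% of all genes. Within 2-fold lay 22 of 23 and 15 of 16, as for 88.7% of all genes. The genes with an interval beyond 2-fold were H2-Q6 and H2-DMb2.

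**Figure D2:**
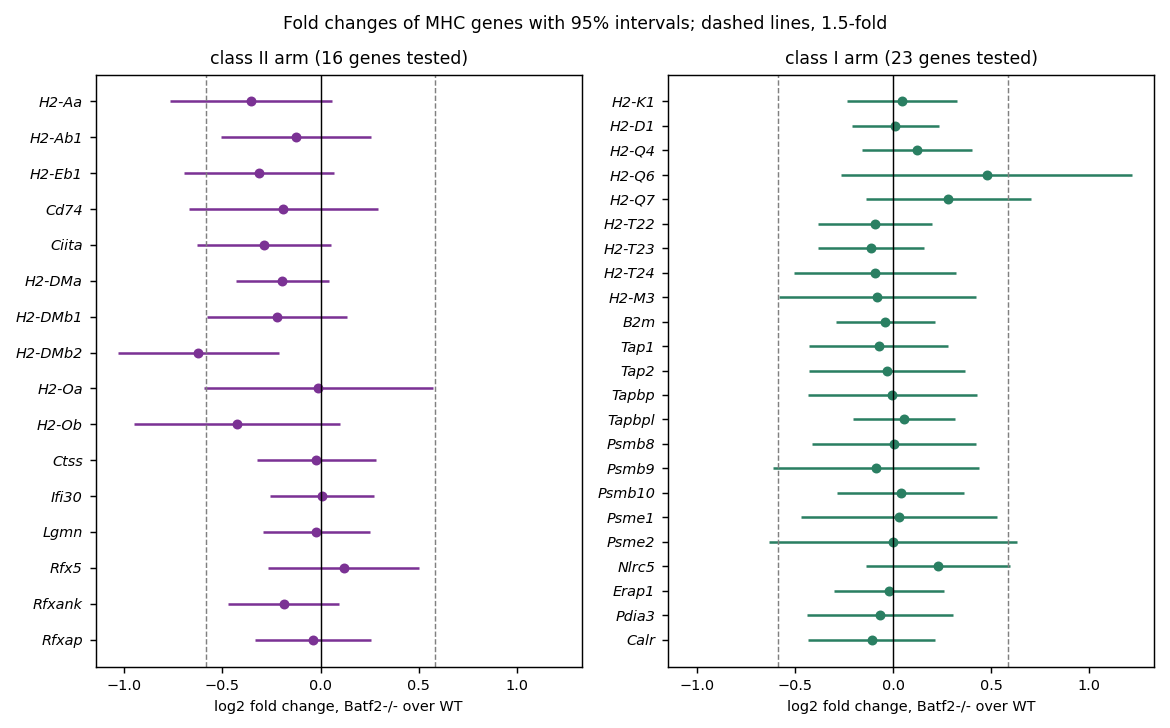
Log2 fold change of Batf2-/- over WT (points) with 95% intervals (lines) for 16 class II genes (left) and 23 class I genes (right); dashed lines mark 1.5-fold. The class II points lie mostly left of 0, with H2-DMb2 lowest at -0.62, and the class I points lie around 0, with H2-Q6 highest at 0.48.

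Within the class II arm, the chain genes came first. H2-Aa, the alpha chain of I-A, stood at 1157, 701, 871 and 874 CPM in WT libraries 1 to 4 and at 765, 525, 740.4 and 787 CPM in Batf2-/- libraries 5 to 8. Library 1 was highest and library 6 lowest, and the groups overlapped through library 2. Its fold change was 0.782 (95% interval 0.588 to 1.04; edgeR adjusted p = 0.727, or 0.0164 with the block). H2-Eb1, the beta chain of I-E, stood at 512, 336, 414 and 359.8 CPM in WT and at 363, 249, 339 and 352 CPM in Batf2-/-, a fold of 0.804 (0.616 to 1.05; adjusted p = 0.771, or 0.0299 with the block). Libraries 1 and 6 were again the extremes. H2-Ab1, the beta chain of I-A, overlapped more, with means of 750 ± 93.1 CPM (WT) and 687 ± 148 CPM (Batf2-/-) (adjusted p = 1.00). The I-E alpha chain is not made in mice of the b haplotype such as C57BL/6, and H2-Ea-ps had 0 counts in all 8 libraries.

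Cd74 stood at 2806, 2083, 2218 and 1446 CPM in WT and at 2349, 1746, 1955 and 1452 CPM in Batf2-/-. Libraries 4 and 8 were lowest of their genotypes, and the spread within each genotype was wider than the gap between the means (fold 0.877, interval 0.629 to 1.22; adjusted p = 1.00).

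The peptide exchange genes held the lowest fold in the set. H2-DMb2, a second beta chain of the H2-M exchange factor, stood at 4.90, 3.54, 4.88 and 3.75 CPM in WT and at 2.59, 2.12, 3.17 and 3.20 CPM in Batf2-/-. All 4 WT libraries lay above all 4 Batf2-/- libraries, a fold of 0.649 (0.488 to 0.862; unadjusted p = 0.00711, adjusted p = 0.230, or 0.0124 with the block). It was counted at a small fraction of the level of its paralogue, with 77 to 191 counts per library, and 14.6% of its 75-base stretches also occur in H2-DMb1. H2-DMb1, the main beta chain, stood at 473 ± 56.7 and 406 ± 79.9 CPM (fold 0.857; adjusted p = 0.954, or 0.0116 with the block). H2-DMa, the alpha chain, stood at 234, 209, 217 and 203 CPM in WT and at 208, 174, 175 and 197 CPM in Batf2-/-. Its groups overlapped through library 5 (fold 0.874, 0.741 to 1.03; adjusted p = 0.778, or 0.0313 with the block). H2-DMa shares 10.4% of its exon bases with Brd2 on the opposite strand, and the strand setting of the count was not given. H2-Oa and H2-Ob had 25 to 58 and 13 to 25 counts per library, with log2 fold changes of -0.01 and -0.42 and wide intervals.

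Endosomal processing genes were close to level. Ctss stood at 2517, 2448, 2916 and 3194 CPM in WT and at 2508, 2449, 2863 and 3097 CPM in Batf2-/-, with the highest values in libraries 4 and 8. Ifi30 stood at 606, 681, 618 and 576 CPM in WT and at 660.0, 701, 559 and 576 CPM in Batf2-/-. Lgmn, an asparaginyl endopeptidase, stood at 321 ± 30.1 and 317 ± 35.4 CPM. All 3 intervals lay within 1.5-fold.

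Ciita stood at 73.8, 78.9, 70.4 and 52.0 CPM in WT and at 60.0, 64.4, 48.7 and 52.5 CPM in Batf2-/-, a fold of 0.820 (0.648 to 1.04; adjusted p = 0.750). Nlrc5, the class I counterpart, stood at 94.1, 107, 92.9 and 66.9 CPM in WT and at 122, 115, 91.0 and 95.2 CPM in Batf2-/-, a fold of 1.17 (0.910 to 1.51; adjusted p = 0.952). Neither gene separated the genotypes, and library 4 was lowest of WT for both. Within a library the ratio of Ciita to Nlrc5, per length, was 0.699, 0.656, 0.675 and 0.692 in WT and 0.437, 0.4998, 0.477 and 0.491 in Batf2-/-. The ratio did not overlap between genotypes, with means of 0.680 ± 0.0189 and 0.476 ± 0.0278 (SD, n = 4). Without libraries 4 and 8 the means were 0.677 and 0.471, and the groups still did not overlap. It was the only non-overlapping ratio among the 8 pairs compared, and 7.67% of all ratios of a pair of tested genes do not overlap. Of the 368 ratios of a class II to a class I gene, 4.08% did not overlap, below that share.

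The RFX subunits bind the X box with either coactivator. Rfx5 stood at 10.6, 12.1, 9.27 and 7.25 CPM in WT and at 12.8, 10.6, 9.55 and 9.72 CPM in Batf2-/-. Rfxank stood at 7.91, 8.16, 9.82 and 9.23 CPM in WT and at 6.93, 8.94, 7.70 and 7.27 CPM in Batf2-/-, and 33.8% of its exon bases are shared with Nr2c2ap on the opposite strand. Rfxap stood at 8.78, 8.64, 8.04 and 9.47 CPM in WT and at 9.67, 7.92, 9.45 and 6.95 CPM in Batf2-/-. The groups overlapped for all 3 genes, with log2 fold changes of 0.12, -0.19 and -0.04 and adjusted p of 0.924 or more.

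Of 7 tested partners of RFX on the promoter, 1 fell, against 0.559% of all genes called lower, and 6 did not pass, with a median log2 fold change of 0.12. Creb1, which binds the CRE part of the module, stood at 75.6, 73.5, 77.5 and 85.5 CPM in WT and at 47.3, 49.0, 54.9 and 59.5 CPM in Batf2-/-. The groups did not overlap, and Creb1 fell by 0.57 on the log2 scale (adjusted p = 0.0498). The call ended without any single library of 1 to 7 (adjusted p from 0.107 to 0.236), where the log2 fold change was -0.59 to -0.50, and under RLE or upper-quartile factors, no filter or a stricter filter (0.0508 to 0.0670). It stood with no scaling factors (0.0357), by DESeq2 (1.69e-04) and limma-voom (0.00463), with the block (6.74e-05) and without libraries 4 and 8 (0.0214). Nfya, Nfyb, Nfyc, Atf1, Crebbp and Ep300 had an adjusted p of 0.771 or more.

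None of 10 genes of the interferon gamma signal to Ciita, its regulators Socs1 and Irf2 included, passed by edgeR. None had an unadjusted p under 0.05, and all 10 intervals lay within 1.5-fold, with log2 fold changes between -0.04 and 0.09. The receptor gene Ifngr1 stood at 32.3 ± 4.79 and 32.3 ± 3.16 CPM, and Irf1, which acts on the inducible Ciita promoter, at 1462 ± 147 and 1428 ± 156 CPM.

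Among 11 genes of class II turnover and endosomal proteolysis, none passed by edgeR and 3 had an unadjusted p under 0.05, all lower in Batf2-/-, against 3.04% of all genes. With the block 4 of the 11 fell, against 5.58% of all genes: March1 (adjusted p = 2.97e-04), Ctsc (5.10e-05), Cd83 (0.0102) and March8 (0.0384), a relative of March1. Without libraries 4 and 8, March1 and Ctsc fell, against 0.655% of all genes. March1, a ubiquitin ligase that sends class II dimers to lysosomes, stood at 68.1, 68.2, 77.7 and 85.0 CPM in WT and at 42.2, 41.3, 41.1 and 62.4 CPM in Batf2-/- (adjusted p = 0.111). Its groups did not overlap, and it passed by DESeq2 (adjusted p = 0.00757), by limma-voom (0.00285), and without library 8 (0.0122), and its adjusted p without libraries 4 and 8 was 0.00521. Cd83, which protects class II from that ligase, stood at 119 ± 24.7 and 85.2 ± 19.3 CPM (adjusted p = 0.533). Ctsc, a dipeptidyl peptidase of lysosomes, stood at 1247, 1173, 1183 and 1164 CPM in WT and at 912, 745, 783 and 834 CPM in Batf2-/-. Its groups were far apart, and the adjusted p of 0.05005 lay on the threshold. It passed by DESeq2 (2.29e-06), by limma-voom (0.00314), under upper-quartile factors (0.0494) and without libraries 4 and 8 (0.0397).

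Class II RNA can also come from dendritic cells and B cells, and in bulk RNA fewer cells of a type cannot be told apart from less RNA per cell. The 10 dendritic cell markers summed to 9.81 to 13.6 CPM in WT and 7.57 to 10.9 CPM in Batf2-/-, with Siglech and Cd209a at 0 and Flt3 at 17 counts over all 8 libraries. Of 4 tested, 1 fell, against 0.559% of all genes called lower, and 3 did not pass. Clec9a, a receptor of cross-presenting dendritic cells, fell from 2.46 ± 0.130 to 0.253 ± 0.0717 CPM (edgeR adjusted p = 1.20e-04). Zbtb46, a transcription factor of conventional dendritic cells, lay the other way, at 0.937 ± 0.262 and 1.92 ± 0.348 CPM with no overlap (adjusted p = 0.0965, or 0.0121 with the block). The 7 B cell markers summed to 80.2 to 123 CPM in WT and 75.1 to 114 CPM in Batf2-/-, nearly all of it Cd22. The defining genes Cd79a, Cd79b, Ms4a1 and Pax5 had 3 to 7 counts each over all libraries. The part of dendritic cells in the class II values was not tested.

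**Figure D3:**
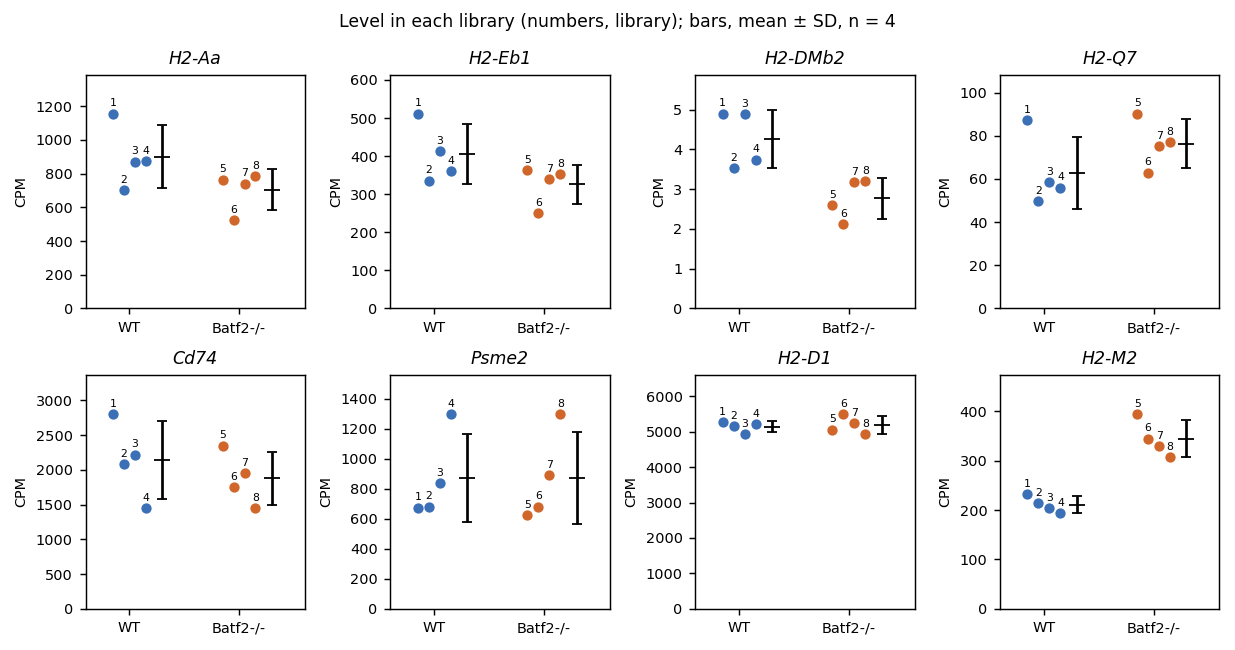
CPM in each library (numbered points) and mean ± SD (bars, n = 4) of 8 genes by genotype. H2-DMb2 and H2-M2 separate the genotypes, H2-Aa, H2-Eb1, H2-Q7, H2-D1 and Cd74 overlap, and Psme2 is highest in libraries 4 and 8.

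In the class I arm the classical heavy chains were level. H2-D1 stood at 5277, 5165, 4922 and 5206 CPM in WT and at 5056, 5505, 5253 and 4933 CPM in Batf2-/-, a fold of 1.01 (0.864 to 1.178). H2-K1 stood at 1948 ± 230.5 and 2011 ± 182 CPM, a fold of 1.03. B2m, the light chain of every class I dimer, stood at 3934, 3782, 3689 and 3410 CPM in WT and at 3760, 3901, 3581 and 3166 CPM in Batf2-/-, a fold of 0.972 (0.816 to 1.16). Of these 3 genes each had an adjusted p of 1.00 and an interval within 1.5-fold.

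The nonclassical chains held the highest folds of the set. H2-Q6 stood at 32.6, 19.6, 15.9 and 11.8 CPM in WT and at 43.5, 22, 22.7 and 23.1 CPM in Batf2-/-, and H2-Q7 at 87.1, 49.8, 58.4 and 55.9 CPM in WT and at 90.3, 62.9, 75.04 and 77.2 CPM in Batf2-/-. Both genes were highest in libraries 1 and 5, and both overlapped between genotypes (folds 1.39 and 1.22; adjusted p = 0.942 and 0.913, or 0.0333 and 0.0169 with the block). The log2 fold change of H2-Q6, 0.48, was 0.82 without library 1, 0.32 without library 4 and 0.18 without library 5. That of H2-Q7, 0.28, was 0.48 without library 1, 0.18 without library 2 and 0.19 without library 5. H2-Q4 stood at 152, 122, 116 and 113 CPM in WT and at 147, 139, 138 and 121 CPM in Batf2-/- (fold 1.09; adjusted p = 1.00). These genes share some sequence with other genes. Of their 75-base stretches, 17.9% in H2-Q6, 17.0% in H2-Q7 and 7.02% in H2-Q4 occur in another gene's transcripts. Their reads may therefore be split, and their separate levels are uncertain. H2-T23, which encodes the Qa-1 chain that NK cells read through CD94 and NKG2A, stood at 737, 810.0, 837 and 952 CPM in WT and at 684, 770.2, 799 and 833 CPM in Batf2-/- (fold 0.925; adjusted p = 1.00). H2-T22, H2-T24 and H2-M3, which presents formylated peptides, had folds of 0.938, 0.938 and 0.946.

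The transporter and loading genes were level between genotypes but uneven between libraries. Tap1 and Tap2 form the peptide pump into the endoplasmic reticulum, and Tapbp, tapasin, bridges it to the heavy chain. Tapbp stood at 2123, 2035, 1799 and 1353 CPM in WT and at 2175, 2062, 1708 and 1342 CPM in Batf2-/-. Libraries 4 and 8 were lowest in both groups, and the genotype means of 1827 and 1822 CPM were nearly equal. Tap1 and Tap2 had folds of 0.950 and 0.980, and Tapbpl, a tapasin relative that edits peptides, 1.04. Calr stood at 2403, 2409, 2748 and 3321 CPM in WT and at 2215, 2347, 2721 and 2807 CPM in Batf2-/-, and Pdia3, the disulfide isomerase of the loading complex, at 627 ± 112 and 599 ± 101 CPM. Erap1, which trims peptides in the endoplasmic reticulum, stood at 183 ± 19.7 and 181 ± 20.1 CPM.

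The immunoproteasome genes replace or cap the standard proteasome after interferon. Psmb8, Psmb9 and Psmb10 had folds of 1.00, 0.942 and 1.03, and the activator genes Psme1 and Psme2 folds of 1.02 and 0.999. Psme2 stood at 673, 680.3, 840 and 1299 CPM in WT and at 622, 681, 889 and 1299 CPM in Batf2-/-. All 5 were highest in libraries 4 and 8 of their genotypes, a place that 31.2% of all genes took, and the summed CPM of the 5 reached 2663 and 2654 there against 1500 to 1925 in the other 6 libraries. The standard proteasome genes did the same in 15 of 17 cases, with none called by edgeR or at an unadjusted p under 0.05. Per length, Psmb8 stood to its standard partner Psmb5 at 0.446 ± 0.0345 in WT and 0.438 ± 0.0244 in Batf2-/-, Psmb9 to Psmb6 at 0.0718 ± 0.00426 and 0.0670 ± 0.00372, and Psmb10 to Psmb7 at 1.27 ± 0.213 and 1.46 ± 0.278. All 3 ratios overlapped between genotypes.

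**Figure D4:**
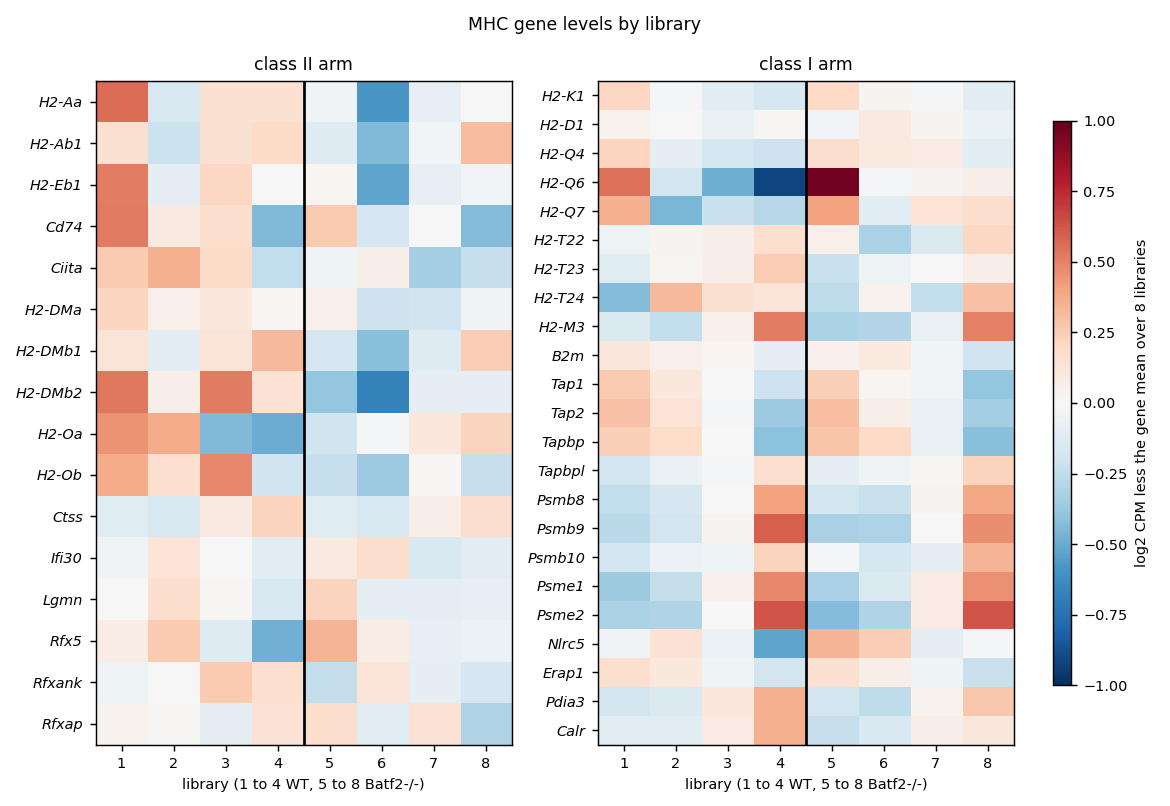
Log2 CPM less the gene's mean over 8 libraries for 16 class II genes (left) and 23 class I genes (right), with libraries 1 to 4 WT and 5 to 8 Batf2-/-. Psme2 and Psmb9 are high and Tapbp and Tap2 low in libraries 4 and 8, and H2-Aa, H2-Eb1 and H2-DMb2 are lowest in library 6.

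Libraries 4 and 8 were both lowest or both highest of their genotypes for 22 of the 39 genes (56.4%), against 63.5% of all genes. The count was 18 of 23 in the class I arm and 4 of 16 in the class II arm. In the class I arm 11 of 23 genes were highest and 7 of 23 lowest in both of them, and in the class II arm 3 and 1 of 16. Over all genes the shares were 31.2% and 32.3%. Lowest in both were Cd74, H2-K1, H2-Q4, B2m, Tap1, Tap2, Tapbp and Erap1. The ratio of Cd74 to H2-Ab1, per length, was 5.44, 5.21, 4.30 and 2.72 in WT and 5.54, 5.11, 4.29 and 2.52 in Batf2-/-. It differed far more between libraries than between the genotype means of 4.42 and 4.37.

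The mean level of each arm in a library, on the log2 scale and less each gene's mean, gave the same contrast. The class II arm was at 0.22, 0.06, 0.11 and -0.04 in WT and at -0.02, -0.20, -0.07 and -0.05 in Batf2-/-. The groups overlapped, with library 4 at the level of the Batf2-/- libraries. The class I arm was at -0.01, -0.05, -0.03 and 0.04 in WT and at 0.02, -0.06, -0.01 and 0.10 in Batf2-/-. The class II level less the class I level was 0.23, 0.11, 0.14 and -0.08 in WT and -0.05, -0.14, -0.05 and -0.15 in Batf2-/-, and here too only library 4 crossed into the other group. By column position, a pairing the labels do not give, the Batf2-/- library differed from the WT library by -0.28, -0.25, -0.19 and -0.07. These differences restate the values above and are no separate test of the contrast.

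**Figure D5:**
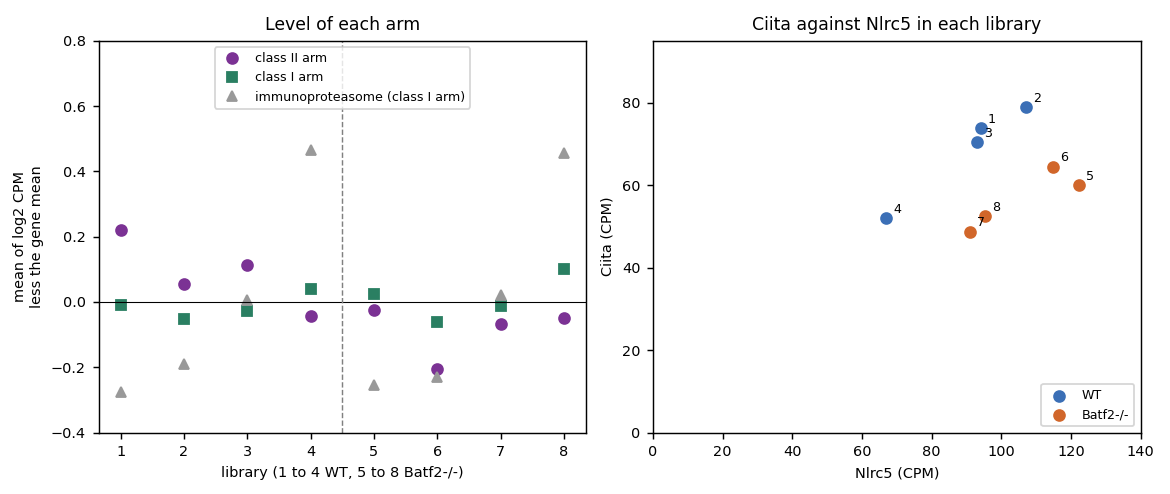
Left, mean level of the class II arm, the class I arm and the 5 immunoproteasome genes in each library, as log2 CPM less the gene mean. Right, CPM of Ciita against Nlrc5 in each numbered library; where Nlrc5 levels are alike, WT libraries 1 to 3 lie above the Batf2-/- libraries.

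Of 25 other class I and class I-like chains listed, 11 were tested, and 1 rose and 10 did not pass, against 0.55% of all genes called higher. H2-M2, a nonclassical class I gene, stood at 232, 214.5, 204 and 193 CPM in WT and at 395, 345, 330 and 306.5 CPM in Batf2-/-. The groups did not overlap, and H2-M2 rose 1.63-fold (edgeR adjusted p = 0.0242). The call ended without library 2, 3, 5, 6 or 7 (0.0636 to 0.107). Cd1d1, which presents lipids to NKT cells, stood at 28.1 ± 3.799 and 42.6 ± 8.57 CPM with non-overlapping groups (adjusted p = 0.185, or 0.0373 by DESeq2). H2-Q5 stood at 8.68 ± 0.980 and 10.8 ± 1.24 CPM, also with no overlap (edgeR adjusted p = 0.499). Groups did not overlap for 3 of the 11, all higher, against 3.03% of all genes. With the block edgeR called the same 3 higher, against 6.97% of all genes: H2-M2 (adjusted p = 7.00e-06), Cd1d1 (1.73e-04) and H2-Q5 (0.0195). The neonatal Fc receptor gene Fcgrt stood at 32.1 ± 0.630 and 30.9 ± 4.10 CPM, and Mr1, which presents vitamin B metabolites, at 25.4 ± 3.58 and 27.1 ± 3.83 CPM. The list's median log2 fold change was 0.24, and 10 of its 11 genes lay above 0, against 5102 of all 11083 genes tested. Among the 10 were H2-Q1, H2-Q10 and Gm11127, with 105, 73 and 101 counts over all 8 libraries.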

How the data were processed

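Per the labels' protocols, libraries came from messenger RNA with a stranded kit. The deposited table holds each gene's raw read count, per the file headers and with no normalization by the authors. The build was GRCm38 (mm10), per the submitters' processing notes. For the aligner, counter, strand setting and annotation release, nothing was given in the sources used here. Counts of overlapping genes and of genes that share stretches of sequence are therefore uncertain. Columns were assigned to genotype by the heading above them. They carry no labelled replicate number. Libraries of a genotype differed by more than sampling noise (chi-square over degrees of freedom of at least 30.6), and each is a pool of 4 mice. Without the block for column position, p-values measure the spread between libraries, in which pools and column position are mixed.

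Counts were tested with edgeR 4.0.16 in R 4.3.3 (robust quasi-likelihood test, TMM factors, default filter, genotype as the only term), with Benjamini-Hochberg adjustment over 11083 genes. Fold changes are Batf2-/- over WT, and intervals of 95% come from the test's standard error. Log2 CPM used a prior count of 2. Lengths, positions and transcripts came from GENCODE M21 (GRCm38), which held 48349 of the identifiers. Alternatives were DESeq2 1.42.0, limma-voom (limma 3.58.1) with quality weights, other scalings, filters and thresholds, a block, and leaving out libraries. The procedure was tested on simulated data. The members, lists and motifs were chosen with earlier results of these data known. Genes named with values in every library were those with the 5 smallest p and the 3 highest levels per length of each arm, the regulators, and list genes that passed. Values of Cd74, Tapbp, Psme2, March1 and Ctsc by library, and the spaced pair of promoter letters, were chosen after the data were seen.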

Additional observations from a re-analysis of the deposited data

Results flagged for a closer look

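In 3 of 78 groups of 4 libraries (39 tested genes in each genotype), the highest or lowest library lay far from the other 3, as chance does in about 1 in 20 groups. H2-Ab1 stood at 611 CPM in WT library 2, with the other WT libraries from 788 to 812 CPM. Lgmn stood at 369.8 CPM in Batf2-/- library 5, with the other Batf2-/- libraries from 298 to 300.2 CPM. H2-Q6 stood at 43.5 CPM in Batf2-/- library 5, with the others from 22 to 23.1 CPM.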

How the results depend on the processing

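No class I or class II gene passed under DESeq2, limma-voom, another scaling or filter, an adjusted p under 0.01, without libraries 4 and 8, or without any single library. The exception was the replicate block on column position, with 5 class II genes lower and 2 class I genes higher, and the cause was not tested. The medians of the arms kept within the spread between libraries, except that of class I without library 4 (0.075; -0.014 to 0.075 over single libraries left out). Genes higher and lower over the whole table numbered 61 and 62, then 214 and 133 under DESeq2, 227 and 143 under limma-voom, 19 and 28 at an adjusted p under 0.01, 772 and 618 with the block, and 133 higher and 73 lower without libraries 4 and 8. Single libraries left out gave 17 to 83 higher and 26 to 59 lower genes, fewest without library 3. The block was on a pairing the labels do not give, since the columns carry no replicate number. Fold changes near 0, none of them called, changed sign on the log2 scale. Under limma-voom H2-Oa was at 0.16, Ifi30 at -0.022, Rfxap at 0.067, Psmb8 at -0.004, Psmb10 at -0.012 and Psme2 at 0.01. Psme2 was at 0.001 under DESeq2 and RLE factors, 0.009 under upper-quartile factors, 0.016 with no scaling, 0.011 under the stricter filter and 0.01 without libraries 4 and 8. Tapbp was at 0.002, 0.003, 0.001 and 0.008 under upper-quartile factors, no scaling, the stricter filter and without libraries 4 and 8. Ifi30 was at -0.002 and Psmb8 at -0.011 with no filter, H2-Oa at 0.01 with the block, and Rfxap at 0.10 without libraries 4 and 8. With single libraries left out the ranges were H2-Oa -0.13 to 0.16, Ctss -0.088 to 0.077, Ifi30 -0.053 to 0.057, Lgmn -0.10 to 0.037, Rfxap -0.11 to 0.045, H2-K1 -0.015 to 0.13, H2-D1 -0.018 to 0.039, H2-T24 -0.23 to 0.004, H2-M3 -0.30 to 0.12, B2m -0.081 to 0.016, Tap1 -0.17 to 0.029, Tap2 -0.14 to 0.069, Tapbp -0.11 to 0.12, Tapbpl -0.014 to 0.14, Psmb8 -0.14 to 0.18, Psmb9 -0.28 to 0.16, Psmb10 -0.082 to 0.15, Psme1 -0.14 to 0.25, Psme2 -0.26 to 0.28, Erap1 -0.077 to 0.046, Pdia3 -0.18 to 0.075 and Calr -0.17 to 0.023. Other values kept their sign but moved by over 1.5 times without 1 library, among them H2-Aa (-0.46 to -0.21), H2-Eb1 (-0.40 to -0.18), H2-DMb1 (-0.36 to -0.13), Cd74 (-0.32 to -0.03), H2-Q6 (0.18 to 0.82) and H2-Q7 (0.18 to 0.48). H2-Ob failed the stricter filter. The depth gave 13 to 191 counts per library for H2-DMb2, H2-Oa and H2-Ob, whose intervals cover counting error and the spread between libraries.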

Other observations

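Outside the members, the general loading and trimming genes of the endoplasmic reticulum and cytosol were level. None of 11 passed by edgeR or at an unadjusted p under 0.05, and 8 of 11 intervals lay within 1.5-fold. Canx, a lectin chaperone of new heavy chains, averaged 598.5 ± 28.4 (WT) and 563 ± 29.9 CPM (Batf2-/-), and Hspa5, the chaperone BiP, at 1150 ± 236 and 1135 ± 198.5 CPM. Lnpep, an endosomal aminopeptidase used in cross-presentation, stood at 110.3 ± 8.72 and 97.4 ± 2.93 CPM (adjusted p = 0.778).

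The most abundant endosomal proteases were also level. Ctsb stood at 9416 ± 293 and 9059 ± 474 CPM, Ctsd at 8661 ± 405 and 9256 ± 502 CPM, and Ctsz at 2447 ± 174 and 2543 ± 244 CPM.

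Markers of other cell types summed to low levels. T and NK cell markers lay between 0.464 and 0.976 CPM in WT and between 0.552 and 4.16 CPM in Batf2-/-, monocyte markers between 0.444 and 0.744 and between 0.304 and 1.42, and neutrophil markers between 17.0 and 31.1 and between 28.4 and 51.2. Epithelial markers lay between 11.01 and 16.7 and between 8.69 and 16.1, and stromal and endothelial markers between 0.681 and 1.10 and between 1.14 and 4.56. The stromal and endothelial sums do not overlap between genotypes. Cdh5, an endothelial cadherin, stood at 0.277 ± 0.162 and 1.596 ± 1.177 CPM, with no overlap (5.70-fold, edgeR adjusted p = 0.112, or 1.68e-04 with the block). Pdgfra was also higher with no overlap, at 0.216 ± 0.0524 and 0.4245 ± 0.134 CPM (edgeR adjusted p = 0.311). Kdr was level at 0.251 ± 0.0751 and 0.271 ± 0.131 CPM. Over all 8 libraries Col1a1 and Col1a2 had 2 counts each, and Pecam1 had 60 and was not tested. Cxcr2, a chemokine receptor of neutrophils, stood at 2.89 ± 0.813 and 6.03 ± 1.68 CPM, also with no overlap (edgeR adjusted p = 0.122, or 7.41e-04 with the block). Of the other neutrophil markers, Ly6g, Retnlg and Mpo had 0 counts and S100a9 had 2 over all 8 libraries. S100a8 made up most of the neutrophil sums, at 19.2 ± 6.98 and 29.2 ± 11.9 CPM with overlap (edgeR adjusted p = 0.699, or 6.30e-04 with the block). The T and NK cell markers were too low to be tested. Cd3g, with 62 counts over all 8 libraries, stood at 0.0409 ± 0.0331 and 0.390 ± 0.225 CPM with no overlap. Cd3e, Cd3d, Trac, Cd4, Cd8a and Klrb1c also had higher means in Batf2-/-, with overlap, and Ncr1 had 0 counts. The part of these cells in the values of the members was not tested.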
